A study of Mus musculus with 12 samples.

Results

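Messenger RNA of 44 cell cycle and mitosis genes was compared between mutant and wild-type mouse embryos in a study of LC1, a conserved non-coding element upstream of Pou3f2, which encodes a POU-family transcription factor. The genes were taken by symbol from the deposited table of gene counts, where all 44 were found among 40690 gene identifiers, each in 1 row. All 44 passed the filter on low counts, which kept 16002 genes. They fall into 11 S-phase genes and 33 mitotic genes, a label used here for genes whose transcripts peak in G2 and mitosis and for the proliferation marker Mki67.

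The RNA came from whole-brain homogenates of 12 C57BL/6J embryos at embryonic day 14.5, and poly-A transcripts were sequenced in 1 library per embryo and 3 embryos per group. The LC1 knockouts (embryos 7, 22 and 71, all female) lack the element, and their controls are LC1 wild types (6, 26 and 73, all female). The RKI homozygotes (A1 and A18, male, and A10, female) carry a knock-in of a human variant of the element on both alleles, and their controls are RKI wild types (A2 and A16, male, and A9, female). The labels say that mutants and controls were matched by sex and litter and name no litter, so p-values measure the spread between these embryos. The labels name no Cre line or transgene. Counts per gene do not read the genotype at a non-coding element, so it was not checked here. Whole brains hold dividing progenitors and postmitotic neurons together, and in such bulk RNA fewer cells of a type and less RNA per cell cannot be told apart.

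A dividing cell copies its DNA in S phase and separates the copies in mitosis. Cyclin E and E2F1 drive entry into S phase, the MCM helicase and PCNA work at the replication fork, and CDK1 with cyclins A and B starts mitosis, which the Aurora and Polo kinases, the kinetochore, kinesins and the anaphase-promoting complex carry through. In the embryonic brain these genes are used mainly by radial glia, which line the ventricles, and by intermediate progenitors, and are switched off in neurons. Many promoters of genes expressed in G2 and mitosis are known to hold a cell cycle genes homology region (CHR), bound by the DREAM and B-MYB complexes, and CCAAT boxes bound by NF-Y, while promoters of S-phase genes often hold E2F sites.

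The promoter windows of 5 mitotic and 3 S-phase genes are shown as a chosen contrast. A CHR match lies in each mitotic and in no S-phase window shown. RKI wild type A16 was the highest library for the transcripts of all these genes, while the lowest library differed between them. Each window runs from 170 bases before to 30 bases after the start of the gene, 5′ to 3′ on the strand of the gene, from RefSeq on GRCm38.p6. Capitals mark matches of 3 motifs, searched on both strands. The CHR was searched as TTTGAA and in its variant form TTCGAA, the box of NF-Y as CCAAT, and the E2F core as TTCCCGC and in its variant form TTGGCGC. A match on the other strand appears as the reverse complement, for example ATTGG for the CCAAT box. Matches of different motifs can share letters, as the E2F core and the CCAAT box do near the end of the Mcm7 window.
Cdk1 (chr10:69352883-69353082, minus strand): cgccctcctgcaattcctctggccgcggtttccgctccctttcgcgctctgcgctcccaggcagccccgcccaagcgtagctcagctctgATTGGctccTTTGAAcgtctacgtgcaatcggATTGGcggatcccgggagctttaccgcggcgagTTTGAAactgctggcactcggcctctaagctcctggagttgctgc
Mki67 (chr7:135716350-135716549, minus strand): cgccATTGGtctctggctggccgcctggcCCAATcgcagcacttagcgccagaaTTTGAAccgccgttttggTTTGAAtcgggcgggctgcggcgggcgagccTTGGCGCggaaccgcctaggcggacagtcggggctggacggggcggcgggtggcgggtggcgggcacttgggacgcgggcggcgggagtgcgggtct
Top2a (chr11:99024160-99024359, minus strand): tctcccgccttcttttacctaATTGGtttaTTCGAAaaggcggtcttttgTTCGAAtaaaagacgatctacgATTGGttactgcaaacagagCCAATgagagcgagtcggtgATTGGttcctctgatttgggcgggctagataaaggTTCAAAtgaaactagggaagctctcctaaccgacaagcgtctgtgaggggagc
Cdc20 (chr4:118437314-118437513, minus strand): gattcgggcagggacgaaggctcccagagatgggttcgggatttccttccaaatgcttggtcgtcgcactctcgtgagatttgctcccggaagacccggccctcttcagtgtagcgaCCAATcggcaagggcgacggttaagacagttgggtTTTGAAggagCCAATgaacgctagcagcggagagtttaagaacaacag
Ube2c (chr2:164769759-164769958, plus strand): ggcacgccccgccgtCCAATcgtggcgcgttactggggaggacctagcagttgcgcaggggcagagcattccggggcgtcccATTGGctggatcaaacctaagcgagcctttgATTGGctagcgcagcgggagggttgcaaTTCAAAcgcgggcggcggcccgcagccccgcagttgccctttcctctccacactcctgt
Mcm7 (chr5:138171854-138172053, minus strand): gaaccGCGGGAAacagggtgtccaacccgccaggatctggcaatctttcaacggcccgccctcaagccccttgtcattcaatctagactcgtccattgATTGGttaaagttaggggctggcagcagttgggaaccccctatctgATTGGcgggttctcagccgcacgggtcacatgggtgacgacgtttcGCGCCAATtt
Pcna (chr2:132253151-132253350, minus strand): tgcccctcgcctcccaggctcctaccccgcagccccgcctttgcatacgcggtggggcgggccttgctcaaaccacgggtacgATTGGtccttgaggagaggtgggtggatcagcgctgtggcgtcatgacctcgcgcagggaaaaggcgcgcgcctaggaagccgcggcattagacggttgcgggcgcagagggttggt
Rrm2 (chr12:24708084-24708283, plus strand): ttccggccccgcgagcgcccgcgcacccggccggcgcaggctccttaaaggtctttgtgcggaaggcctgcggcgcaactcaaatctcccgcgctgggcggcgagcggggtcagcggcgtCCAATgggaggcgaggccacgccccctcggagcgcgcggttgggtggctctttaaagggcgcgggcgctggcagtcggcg
In these letters, Cdk1, the mitotic kinase, has CHR matches with first bases at -71 and -15 relative to the start and CCAAT boxes at -80 and -48. Cdc20, the activator of the anaphase-promoting complex, has a CHR match at -18 and CCAAT boxes at -53 and -8. Ube2c, its ubiquitin-conjugating enzyme, has a CHR match at -29 and the nearest CCAAT box at -57. Top2a, the topoisomerase that untangles chromosomes, has 3 CHR matches and 4 CCAAT boxes in its window. The S-phase windows of Mcm7, Pcna and Rrm2 hold no CHR match and 3, 1 and 1 CCAAT boxes, and Mcm7 also holds 2 E2F cores. The mitotic window of Mki67 holds an E2F core as well, at -67, and those of Pcna and Rrm2 hold none. The windows of the mitotic genes Birc5, Nuf2 and Nusap1 hold no match of any of these motifs and are not shown.

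Of the 44 members, 39 had a window in the RefSeq table, 29 mitotic and 10 S-phase, and Ccna2, Ccne2, Aurkb, Kif20a and Tpx2 had none. A CHR match was found in 18 of 29 mitotic genes, or 62.1%, and in 1 of 10 S-phase genes, or 10%, against 14.3% of the 27025 genes in the table. The S-phase gene with a match was Mcm2. A CHR match together with a CCAAT box was found in 16 mitotic genes, or 55.2%, and in 0 S-phase genes, against 5.08% of all genes. A CCAAT box, with or without a CHR match, was found in 22 of 29 mitotic and 6 of 10 S-phase genes, against 32.4% of all genes. E2F cores ran the other way, with 3 of 29 mitotic and 4 of 10 S-phase genes, against 5.78% of all genes. These 4 were Mcm3, Mcm5, Mcm6 and Mcm7. Genes with several windows were counted once, where any window held the motif, and a match in these letters is a description of the sequence and not a measured binding site.

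All 12 libraries had the expression of embryonic brain, with 12 of 12 neuronal markers and 12 of 12 radial glia markers past the filter and none of them at 0 in any library. Total counts ran from 18192984 to 26566769 per library, and RKI wild type A16, which stands apart in what follows, had 21900958. Levels of 1 gene across libraries are CPM, its count scaled to the TMM-adjusted total of the library, and levels of different genes are compared as the deposited RPKM, which corrects for transcript length. On the RPKM scale Top2a had the highest mean over the 12 libraries, at 38.7 RPKM, followed by Pcna, the sliding clamp of DNA polymerase, at 37.4 and Mki67, the antigen of proliferating cells, at 34.2. The S-phase cyclins Ccne1 and Ccne2 were lowest, at 3.96 and 3.72 RPKM. Top2a lay at the 91.7th percentile and Ccne2 at the 39.7th percentile of the genes tested, so most members were in the upper part of the genes tested.

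The members were highest in 1 library. RKI wild type A16 was the highest of the 12 libraries for 43 of 44 members, against 14.5% of all genes tested. The exception was Ccne2, cyclin E2, at 15.6 CPM in A16 and 15.8 CPM in LC1 wild type 6. On the scale of log2 CPM minus the mean of the gene over the 12 libraries, all 44 members lay more than 0.25 above their own mean in A16, against 10.1% of all genes tested. This distance was chosen after the values were seen. RKI wild type A9 lay at the other end and was the lowest library for 29 of 44 members, against 11.3% of all genes. All 44 members were below their own mean in A9, and 16 of them by more than 0.25, against 7.04% of all genes.

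**Figure D1:**
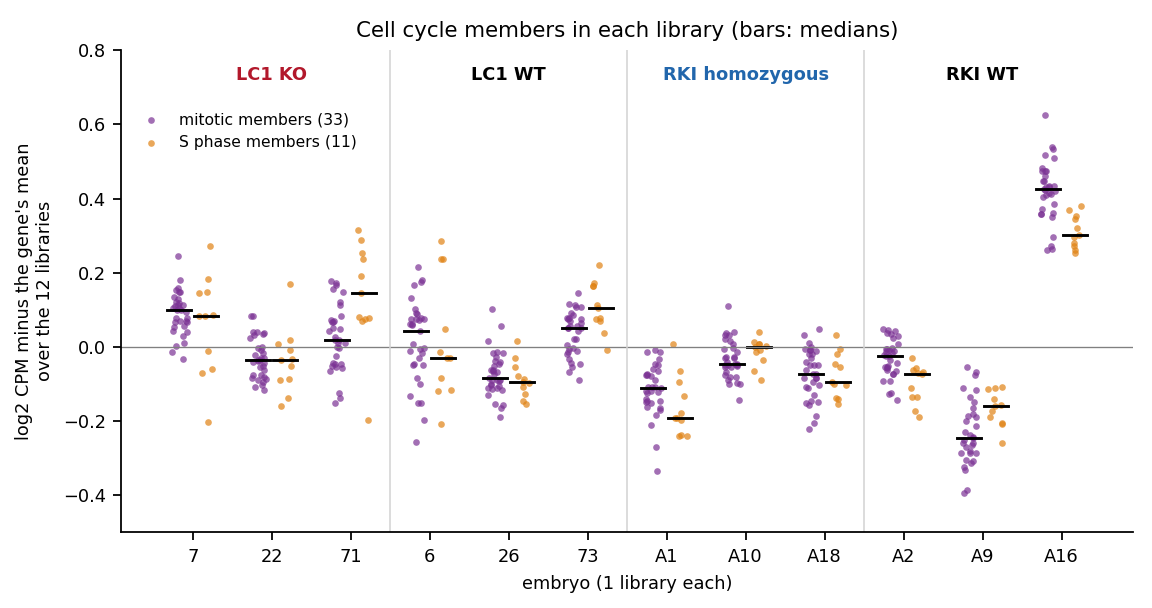
Each point is 1 of 44 genes, plotted as log2 CPM minus the mean of that gene over the 12 libraries (vertical axis, log2 units), for each embryo (horizontal axis), with mitotic members left of S-phase members and bars at the medians. All 44 points of RKI wild type A16 lie above 0.25, with medians of 0.43 for mitotic and 0.30 for S-phase members, and all 44 points of A9 lie below 0.

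A score per library, the mean of these distances over the genes of a class, was highest in A16 and lowest in A9 for both classes. In the 3 RKI homozygotes A1, A10 and A18 the mitotic score was -0.12, -0.03 and -0.07, against -0.03, -0.23 and 0.42 in RKI wild types A2, A9 and A16. The S-phase score was -0.16, -0.01 and -0.07 in the homozygotes, against -0.10, -0.17 and 0.31 in the wild types. The homozygotes lay between the extremes of their wild types on both scores, so the groups overlapped. In LC1 knockouts 7, 22 and 71 the mitotic score was 0.09, -0.03 and 0.03, against 0.01, -0.07 and 0.04 in LC1 wild types 6, 26 and 73. The S-phase score was 0.06, -0.04 and 0.14 in the knockouts, against 0.02, -0.09 and 0.11 in the wild types. The LC1 groups overlapped as well, and all 6 LC1 libraries lay within a narrower range than the 3 RKI wild types.

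A16 and A9 lay farther apart for mitotic than for S-phase genes. The ratio of A16 to A9 was 1.34 to 2.03 over the 33 mitotic genes with a median of 1.55, and 1.29 to 1.49 over the 11 S-phase genes with a median of 1.38, while the median over all genes tested was 1.01. The widest ratio was that of Ndc80, a subunit of the outer kinetochore, at 2.03, followed by Cenpe, the kinetochore kinesin, at 1.91 and the checkpoint kinase Bub1 at 1.81. The narrowest was that of Tyms, thymidylate synthase, at 1.29. The mitotic score exceeded the S-phase score by 0.11 in A16 and by 0.07 in A2, and the difference was -0.065 in A9. In LC1 the difference of mitotic minus S-phase score was 0.03, 0.01 and -0.11 in knockouts 7, 22 and 71, against -0.00, 0.01 and -0.07 in wild types 6, 26 and 73. Knockout 71 and wild type 73 thus had S-phase scores above 0 with mitotic scores near 0, a pattern that neither A16 nor A9 had.

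Between groups, the mitotic score averaged -0.07 ± 0.04 in RKI homozygotes and 0.05 ± 0.33 in RKI wild types, and the S-phase score -0.08 ± 0.07 in RKI homozygotes and 0.01 ± 0.26 in RKI wild types (SD, n = 3 each). The homozygous minus wild-type difference was -0.13 for the mitotic and -0.10 for the S-phase score, and 0.06 and 0.05 without A16. The mitotic score averaged 0.03 ± 0.06 in LC1 knockouts and -0.01 ± 0.06 in LC1 wild types, and the S-phase score 0.05 ± 0.09 in LC1 knockouts and 0.01 ± 0.10 in LC1 wild types (SD, n = 3 each). These LC1 differences, 0.04 for each class, were smaller than the SD of either group.

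**Figure D2:**
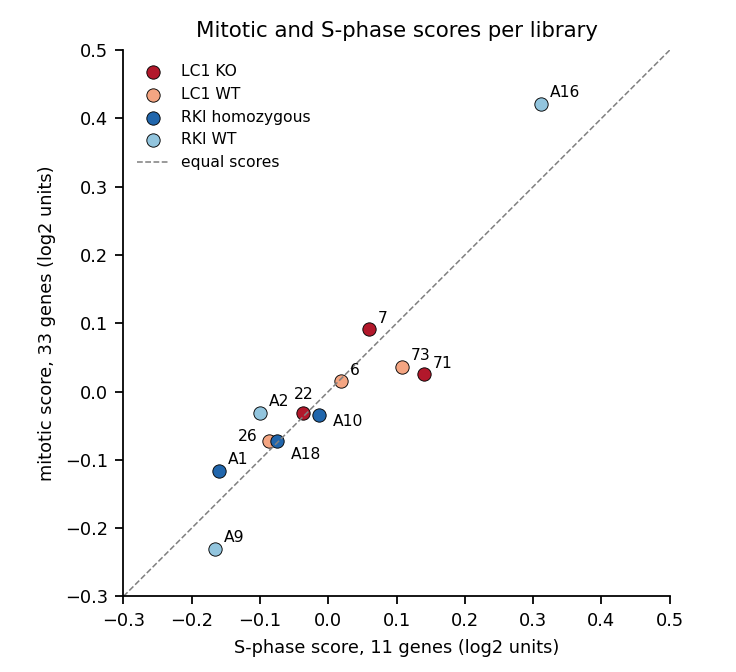
The mitotic score (vertical axis, 33 genes) is plotted against the S-phase score (horizontal axis, 11 genes), both in log2 units, with 1 labelled point per library and a dashed line where the scores are equal. RKI wild type A16 stands apart at 0.42 and 0.31, and LC1 knockout 71 and wild type 73 lie below the line.

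In A16 and A9 every role group lay on the side of its class. In A16 the score was 0.51 for the centromere and kinetochore genes, 0.44 for Birc5 and Cdca8, 0.435 for the mitotic kinases, 0.42 for CDK1 and its cyclins and 0.33 for the anaphase group. In A9 the same groups had -0.34, -0.26, -0.20, -0.19 and -0.19. The groups of Mki67 with Top2a, of kinesins and spindle and of cytokinesis had 0.44, 0.41 and 0.38 in A16 and -0.25, -0.21 and -0.24 in A9. Within the S-phase class the DNA replication genes had 0.32 in A16 and -0.15 in A9, and the G1/S group of Ccne1, Ccne2 and E2f1 had 0.28 and -0.21. In other libraries the groups parted. LC1 knockout 71 had 0.14 for Birc5 and Cdca8 and -0.03 for kinesins and spindle, and LC1 wild type 6 had 0.08 for CDK1 and its cyclins and -0.06 for Mki67 with Top2a.

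The spread between embryos differed between the RKI groups. For 44 of 44 members the homozygotes had a smaller SD of log2 CPM than their wild types, against 63.8% of all genes tested. The median SD over the members was 0.06 in RKI homozygotes and 0.31 in RKI wild types (n = 3 each). Over all genes tested it was 0.09 in RKI homozygotes and 0.12 in RKI wild types. For LC1, 24 of 44 members had the smaller SD in the knockouts, against 52.8% of all genes, with a median of 0.09 in knockouts and 0.10 in wild types (n = 3 each). Without A16, a setting chosen after the values were seen, the RKI homozygotes had the smaller SD for 27 of 44 members, against 46.7% of all genes, and the median SD of the 2 wild types left was 0.11.

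Sums of cell type markers differed between the libraries as well. The 12 neuronal markers summed to 9341 to 9834 CPM in RKI homozygotes, against 8460 to 9805 CPM in RKI wild types, where the lowest value of all 12 libraries was that of A16. The 12 radial glia markers summed to 2647 to 2852 CPM in RKI homozygotes, against 2602 to 3264 CPM in RKI wild types, with A16 the highest and A9 the lowest of the 12 libraries. Of these 12 markers 10 were lower in RKI homozygotes, with a median log2 fold change of -0.12, and 6 of 12 were lower without A16, with a median of -0.03. In LC1 the radial glia sum was 2659 to 3025 CPM in knockouts and 2817 to 2972 CPM in wild types, and the neuronal sum 9176 to 9342 CPM in knockouts and 8906 to 9875 CPM in wild types. The 6 midbrain and hindbrain markers past the filter, of 16 listed, summed to 18.6 to 31.5 CPM in RKI homozygotes, against 12.5 to 20.9 CPM in RKI wild types, with A16 the lowest of the 12 libraries. In LC1 this sum was 23.3 to 34.3 CPM in knockouts and 27.3 to 35.8 CPM in wild types. Of the 6 markers, 5 were higher and 1 lower in RKI homozygotes, with a median log2 fold change of 0.74. Without A16 the counts were the same, with a median of 0.56. In LC1 knockouts 1 was higher and 5 lower, with a median of -0.15. None of the 6 passed edgeR's test after adjustment in either comparison. Their score was -1.58 in A16, -0.59 in A2 and -0.30 in A9. In RKI homozygotes A1, A10 and A18 it was 0.22, 0.18 and -0.395, so the groups overlapped. Of the 16 markers, 4 were at 0 in every library. The 8 choroid plexus markers summed to 737 to 763 CPM in RKI homozygotes, against 788 to 888 CPM in RKI wild types, and the 11 erythroid markers past the filter summed to 1076 to 1663 CPM in RKI homozygotes, against 1026 to 1987 CPM in RKI wild types, with A16 the highest RKI library on both sums. No choroid plexus or erythroid marker was at 0 in any library.

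Markers of intermediate progenitors, the neuron-producing daughters of radial glia, summed to 491 to 561 CPM in LC1 knockouts, against 419 to 517 CPM in LC1 wild types. All 10 were higher in knockouts, with a median log2 fold change of 0.13. Their sum was 455 to 514 CPM in RKI homozygotes, against 489 to 572 CPM in RKI wild types. All 10 were lower in homozygotes with a median of -0.13, and 9 of 10 were lower without A16 with a median of -0.11. The 10 microglia and macrophage markers summed to 144 to 152 CPM in LC1 knockouts, against 152 to 195 CPM in LC1 wild types, and all 10 were lower with a median of -0.24. The 10 markers of the meninges summed to 961 to 1244 CPM in LC1 knockouts, against 1131 to 1351 CPM in LC1 wild types, and all 10 were lower with a median of -0.20. Of these 2 lists 4 of 10 markers each were lower in RKI homozygotes. None of the markers of these 3 lists passed an adjusted p of 0.05 by edgeR, and none was at 0 in any library. Of 10 markers of forebrain regions, 9 were higher in LC1 knockouts, with a median log2 fold change of 0.15. In RKI homozygotes 5 of these 10 were higher and 5 lower, with a median of 0.04. None of the 10 passed the adjusted threshold by edgeR in either comparison. The part of these differences in the level of the cell cycle genes was not tested.

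GC content, the deposited percentage for each gene, was set beside these values. The members had a median GC content of 44.1%, against 46.1% over all genes tested. In A16 the median distance was 0.41 for the members and 0.02 for 5027 other genes whose GC content lay between the quartiles of the members, 42.2% and 47.2%. In A9 it was -0.21 for the members and -0.015 for those genes.

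In LC1 knockouts no cell cycle gene passed the test. By edgeR's quasi-likelihood test 0 of 44 members passed an adjusted p of 0.05, and 0% of all genes did. At an unadjusted p under 0.05, edgeR listed 1 member, against 2.09% of all genes. The log2 fold change of knockout over wild type was above 0 for 29 of 44 members, against 48.6% of all genes tested, and ran from -0.17 to 0.25. The median was 0.04 over all members, 0.03 over the mitotic and 0.08 over the S-phase members, and 0.00 over all genes tested. The median SE of a member was 0.118, which is larger than the fold change of most members.

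The Aurora B kinase gene Aurkb, the catalytic subunit of the chromosomal passenger complex, had the smallest p. Aurkb was at 33.04, 28.6 and 31.3 CPM in LC1 knockouts 7, 22 and 71, against 23.3, 25.7 and 28.9 CPM in LC1 wild types 6, 26 and 73. Knockout 22 lay just below wild type 73, and the other knockouts lay above all wild types. Its log2 fold change was 0.25 (SE 0.107), with an unadjusted p of 0.0308 and an adjusted p of 1 by edgeR. It was 0.18 without wild type 6 and 0.34 without wild type 73, and was above 0 in each fit that left out 1 LC1 library. Leaving out an RKI library hardly moves this value. Plk1, the Polo-like kinase of mitotic entry, had 0.17 (SE 0.115).

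Ube2c was the only member whose LC1 groups did not overlap, where 3.36% of all genes were higher in every knockout than in every wild type. Ube2c was at 60.3, 53.6 and 55.01 CPM in LC1 knockouts 7, 22 and 71, against 51.4, 50.95 and 51.7 CPM in LC1 wild types 6, 26 and 73. The 3 wild types lay within 1 CPM of each other, and knockout 7 was the highest. The log2 fold change was 0.13 (SE 0.0973), with an adjusted p of 1 by edgeR.

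The S-phase members were split within LC1. Rrm2, the small subunit of ribonucleotide reductase, was at 88.1, 77.2 and 94.8 CPM in LC1 knockouts 7, 22 and 71, against 67.2, 71.2 and 83.5 CPM in LC1 wild types 6, 26 and 73. Wild type 73 lay above knockout 22, so the groups overlapped, and the log2 fold change was 0.23 (SE 0.128). Ccne2 was at 11.2, 14.5 and 11.2 CPM in LC1 knockouts 7, 22 and 71, against 15.8, 12.4 and 13.6 CPM in LC1 wild types 6, 26 and 73. Knockout 22 was second only to wild type 6, and the fold change was -0.17 (SE 0.129). Pcna was at 85.95, 90.01 and 98.9 CPM in LC1 knockouts 7, 22 and 71, against 106, 90.5 and 88.98 CPM in LC1 wild types 6, 26 and 73, with wild type 6 highest and knockout 7 lowest and a fold change of -0.05 (SE 0.108). Wild type 6 was the highest LC1 library for Pcna, Ccne2 and Tyms and the lowest for Rrm2. The helicase genes Mcm2, Mcm3, Mcm5, Mcm6 and Mcm7 had 0.10, 0.11, 0.11, 0.07 and 0.04, E2f1 had -0.00 and Tyms -0.12.

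Mki67 was at 368, 316 and 346 CPM in LC1 knockouts 7, 22 and 71, against 298, 317 and 370.1 CPM in LC1 wild types 6, 26 and 73. Its groups overlapped, with a log2 fold change of 0.06 (SE 0.133). Cdk1 was at 50.9, 49.01 and 44.6 CPM in LC1 knockouts 7, 22 and 71, against 55.5, 48.5 and 47.9 CPM in LC1 wild types 6, 26 and 73. Wild type 6 was the highest and knockout 71 the lowest, with a fold change of -0.07 (SE 0.1). Ccna2, cyclin A2, had 0.09 (SE 0.106), Birc5, the survivin subunit of the passenger complex, 0.11 (SE 0.131) and Nuf2, a partner of Ndc80 at the kinetochore, 0.08 (SE 0.118). Racgap1, which organizes the central spindle for cytokinesis, had 0.12 (SE 0.0887), and Nusap1, a protein that bundles spindle microtubules, -0.11 (SE 0.0929). Each of these 5 genes had overlapping groups and an adjusted p of 1 by edgeR.

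The LC1 median of the members moved with several embryos. It was 0.01 without knockout 7 or without wild type 26, 0.02 without knockout 71, 0.07 without knockout 22 and 0.08 without wild type 73. It was above 0 in each of these fits.

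**Figure D3:**
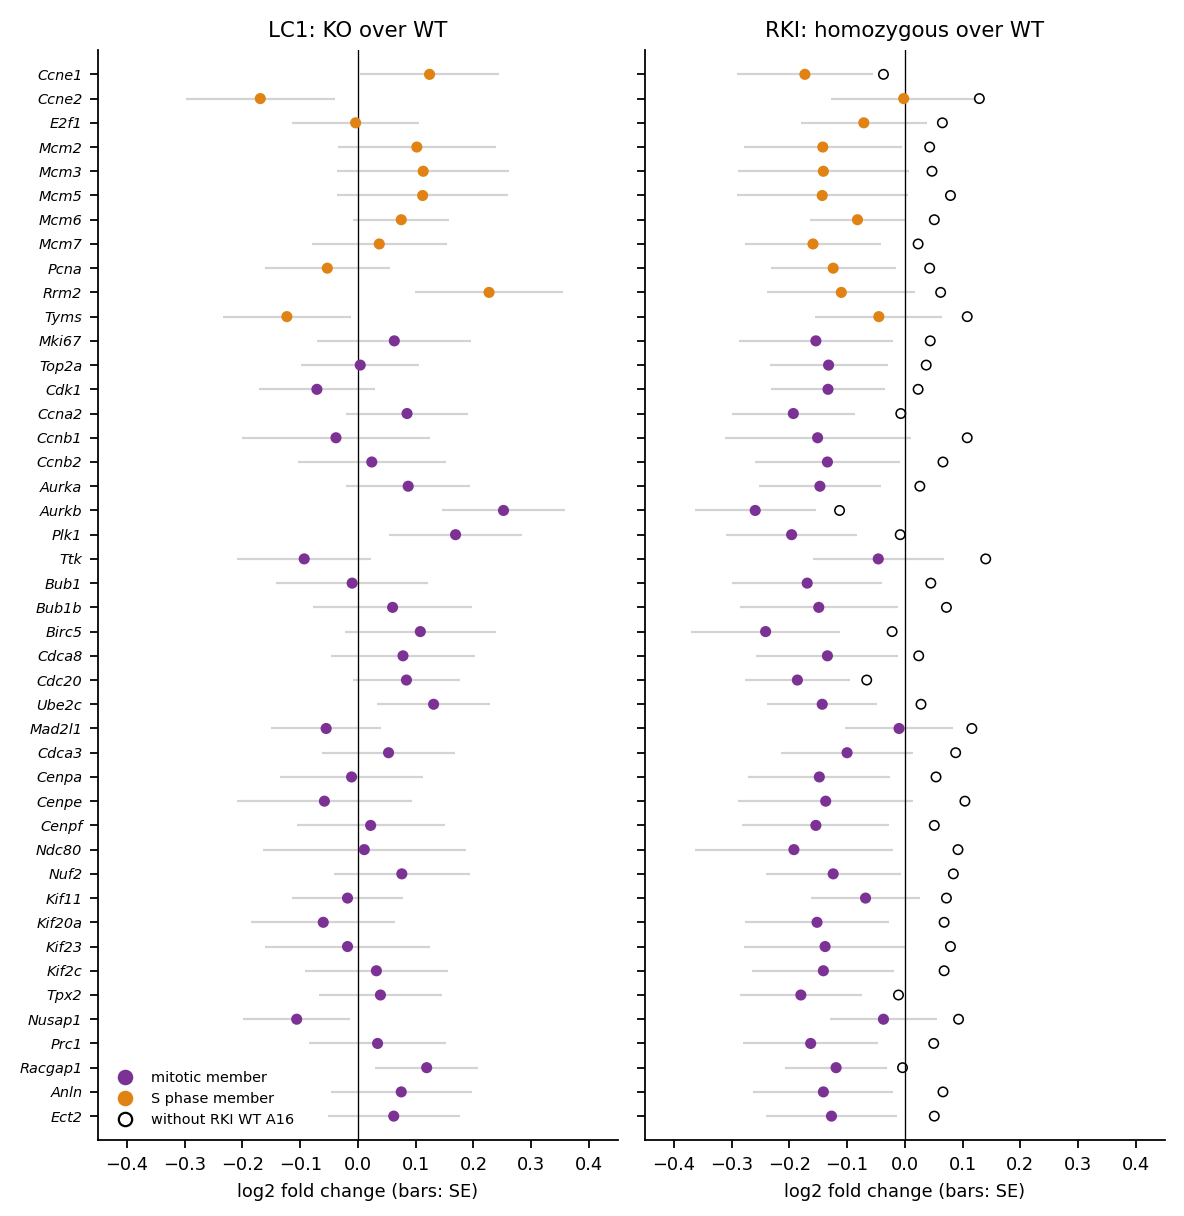
Log2 fold changes of the 44 genes are shown as points with bars for the SE, LC1 knockout over wild type on the left and RKI homozygous over wild type on the right, coloured by class. Open circles give the RKI value without wild type A16. All 44 filled points on the right lie below 0, and 36 of the 44 open circles lie above 0.

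In RKI homozygotes all 44 members had a lower mean than in RKI wild types, and none passed the test. The log2 fold change of homozygous over wild type was below 0 for 44 of 44 members, against 49.4% of all genes tested, and ran from -0.26 to -0.00. The median was -0.14 over all members, -0.14 over the mitotic and -0.12 over the S-phase members, and 0.00 over all genes tested. By edgeR's quasi-likelihood test 0 members passed an adjusted p of 0.05, and 0% of all genes did. At an unadjusted p under 0.05 edgeR listed 1 member, which was lower, against 0.981% of all genes that were lower at that p.

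Without wild type A16 the direction turned, and 36 of 44 members were higher in the homozygotes and 8 lower, with a median of 0.05 in both classes. Without A9 the median was -0.30 with 29 members at an unadjusted p under 0.05, and without A10 it was -0.30 with 29 as well, but 0 members passed the adjusted threshold in either fit. Leaving out A9 or A10 removes 1 of the 2 females of this experiment, and the sex term then takes up the other, so these fits compare A1 and A18 with A2 and A16. The median was -0.22 without A2, -0.08 without A1 and -0.11 without A18. At an unadjusted p under 0.05, 3.78% of all genes were lower without A9 and 0.852% without A16. The 8 members that stayed lower without A16 were Aurkb at -0.11, Cdc20 at -0.07, Ccne1 at -0.04, Birc5 at -0.02 and Ccna2, Plk1, Tpx2 and Racgap1, at -0.01 to -0.00.

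Aurkb was also the member with the smallest p in RKI. It was at 24.1, 25.2 and 26.2 CPM in RKI homozygotes A1, A10 and A18, against 27.8, 26.6 and 36.4 CPM in RKI wild types A2, A9 and A16. All 3 homozygotes lay below all 3 wild types, though A18 and A9 were close, and Aurkb was the only member with groups that did not overlap, where 3.07% of all genes were lower in every homozygote. The log2 fold change was -0.26 (SE 0.105), with an unadjusted p of 0.0248 and an adjusted p of 1 by edgeR. A16 was the highest of the 12 libraries for Aurkb, and the homozygotes lay within the range of the LC1 wild types. Without A16 the value was -0.11.

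The difference between the RKI and LC1 effects was tested for every gene. By edgeR 0 of 44 members passed an adjusted p of 0.05, and 0% of all genes did, while 2 members had an unadjusted p under 0.05, against 2.42% of all genes. These were Aurkb at -0.51 (SE 0.15) with an unadjusted p of 0.00338, and Plk1 at -0.36 (SE 0.161) with an unadjusted p of 0.038, each with an adjusted p of 1. Without A16 they were -0.37 for Aurkb and -0.18 for Plk1. Of the 44 members 39 had a negative difference, against 47.9% of all genes, with a median of -0.19, and the median was 0.01 without A16.

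Cdc20 was at 43.02, 44.98 and 43.4 CPM in RKI homozygotes A1, A10 and A18, against 49.2, 41.96 and 59.2 CPM in RKI wild types A2, A9 and A16. A9 was below every homozygote, and A2 and A16 were above. The log2 fold change was -0.19 (SE 0.0913). Birc5 was at 22.1, 23.4 and 22.5 CPM in RKI homozygotes A1, A10 and A18, against 24.8, 20.9 and 35.5 CPM in RKI wild types A2, A9 and A16, with a fold change of -0.24 (SE 0.129), and A9 again lay lowest. Ccna2 was at 101, 114 and 102 CPM in RKI homozygotes A1, A10 and A18, against 109, 105 and 149.7 CPM in RKI wild types A2, A9 and A16, with -0.19 (SE 0.106). For Ccna2 the highest homozygote, A10, lay above A2 and A9 and below A16. In each of these 3 genes the groups overlapped and the adjusted p by edgeR was 1.

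Mki67 was at 327, 329.7 and 342 CPM in RKI homozygotes A1, A10 and A18, against 352, 286 and 489 CPM in RKI wild types A2, A9 and A16. The 3 homozygotes lay between A9 below and A2 and A16 above, and the group values were 333 ± 8.02 CPM in homozygotes and 376 ± 103.8 CPM in wild types (SD, n = 3 each). Its fold change was -0.15 (SE 0.133). Cdk1 was at 48.6, 46.4 and 45.5 CPM in RKI homozygotes A1, A10 and A18, against 47.02, 44.7 and 62.98 CPM in RKI wild types A2, A9 and A16, with -0.13 (SE 0.0989). Top2a was at 315, 340.5 and 322 CPM in RKI homozygotes A1, A10 and A18, against 339, 295 and 446 CPM in RKI wild types A2, A9 and A16, with -0.13 (SE 0.102). In all 3 genes A16 was the highest and A9 the lowest of the RKI libraries. Without A16 the fold changes were 0.04 for Mki67, 0.02 for Cdk1 and 0.04 for Top2a.

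At the kinetochore and spindle, Cenpa, the histone variant of centromeres, was at 36.3, 35.8 and 31.3 CPM in RKI homozygotes A1, A10 and A18, against 35.96, 29.9 and 49.8 CPM in RKI wild types A2, A9 and A16, with a log2 fold change of -0.15 (SE 0.123). Tpx2, which targets Aurora A to the spindle, was at 91.5, 92.8 and 93.7 CPM in RKI homozygotes A1, A10 and A18, against 101, 83.9 and 133 CPM in RKI wild types A2, A9 and A16, with -0.18 (SE 0.106). The 3 homozygotes of Tpx2 were close together, while its wild types lay on both sides of them. Racgap1 had -0.12 (SE 0.0881) and Ube2c -0.14 (SE 0.0956), the last at 52.3, 54.8 and 54.7 CPM in RKI homozygotes A1, A10 and A18, against 53.01, 53.1 and 73.2 CPM in RKI wild types A2, A9 and A16. In Ube2c the wild types A2 and A9 lay inside the range of the homozygotes, and A16 alone lay outside it. Without A16 the fold change was 0.05 for Cenpa and 0.03 for Ube2c.

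Among S-phase genes, Mcm7 was at 115, 138 and 124 CPM in RKI homozygotes A1, A10 and A18, against 130.2, 118 and 174 CPM in RKI wild types A2, A9 and A16, with a fold change of -0.16 (SE 0.117). Pcna was at 78.03, 87.3 and 83.3 CPM in RKI homozygotes A1, A10 and A18, against 81.6, 80.2 and 109.8 CPM in RKI wild types A2, A9 and A16, with -0.12 (SE 0.108). Ccne1, cyclin E1, was at 9.57, 9.88 and 9.43 CPM in RKI homozygotes A1, A10 and A18, against 10.3, 9.40 and 12.97 CPM in RKI wild types A2, A9 and A16, with -0.17 (SE 0.118). For Mcm7 and Pcna the lowest RKI library was homozygote A1, not wild type A9. A1 was the lowest of the 12 libraries for 9 members, of which Mcm2, Mcm5, Mcm7, Pcna and Rrm2 belong to DNA replication. The others were the mitotic genes Ccna2, Ccnb1, Plk1 and Kif23, and the share of all genes lowest in A1 is not given here. Ccne2 was at 13, 12.3 and 13.2 CPM in RKI homozygotes A1, A10 and A18, against 12.4, 10.8 and 15.6 CPM in RKI wild types A2, A9 and A16 and had a fold change of -0.00 (SE 0.126), the smallest in size of all members. Without A16 the values were 0.02 for Mcm7, 0.04 for Pcna, -0.04 for Ccne1 and 0.13 for Ccne2.

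**Figure D4:**
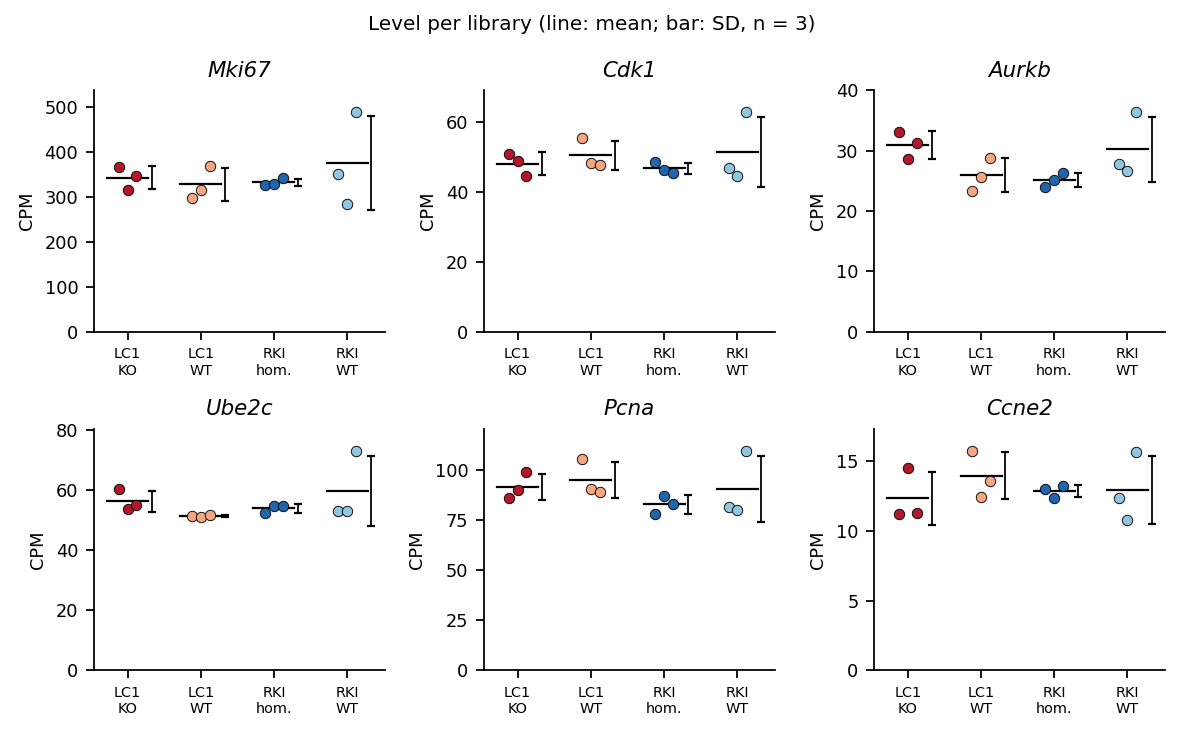
Levels of 6 members in CPM (vertical axis, from 0) are shown for each library in the 4 groups, with a line at the mean and a bar for the SD (n = 3). In 5 of the 6 genes the highest point is RKI wild type A16, for example 489 CPM for Mki67, and in Ccne2 it is LC1 wild type 6 at 15.8 CPM.

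The remaining 26 members had overlapping groups in both experiments. Their LC1 log2 fold changes ran from -0.12 for Tyms to 0.17 for Plk1, and their RKI values from -0.20 for Plk1 to -0.01 for Mad2l1, which encodes a spindle checkpoint protein. The helicase genes Mcm2, Mcm3, Mcm5 and Mcm6 had -0.14, -0.14, -0.14 and -0.08 in RKI, the S-phase factor gene E2f1 -0.07 and Tyms -0.04. In the kinase group the checkpoint kinases Ttk, Bub1 and Bub1b had -0.09, -0.01 and 0.06 in LC1 and -0.05, -0.17 and -0.15 in RKI, and Aurka, the Aurora kinase of the spindle poles, 0.09 and -0.15. The B cyclins Ccnb1 and Ccnb2 had -0.04 and 0.02 in LC1 and -0.15 and -0.13 in RKI. The kinetochore genes Cenpe, Cenpf and Ndc80 had -0.06, 0.02 and 0.01 in LC1 and -0.14, -0.15 and -0.19 in RKI. The kinesins Kif11, Kif20a, Kif23 and Kif2c and the midzone protein gene Prc1 had -0.06 to 0.03 in LC1 and -0.16 to -0.07 in RKI. The cytokinesis genes Anln and Ect2 had 0.07 and 0.06 in LC1 and -0.14 and -0.13 in RKI. Cdca8, the borealin subunit of the passenger complex, had 0.08 and -0.13, and Cdca3, which acts in mitotic entry, 0.05 and -0.10.

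The authors' deposited table for LC1 lists 31 of the 44 members as higher and 13 as lower in knockouts, with a median log2 fold change of 0.04 and 3 members at an unadjusted p under 0.05. The authors' deposited table for RKI, with the sign turned to homozygous minus wild type, lists 44 of 44 as lower with a median of -0.14 and 1 at an unadjusted p under 0.05. The smallest adjusted p of a member in the authors' deposited tables was 0.718 for LC1 and 0.997 for RKI. In these tables the LC1 members under 0.05 were Rrm2, Aurkb and Plk1, with Rrm2 ahead of Aurkb, and the RKI member was Aurkb. The share of all genes at that p in the authors' tables was not counted.

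Sex also differed between A16, a male, and A9, a female. The males A1, A2 and A18 had negative scores in both classes. In the sex term, which only the 6 RKI libraries inform, all 44 members were higher in males than in females, against 49.7% of all genes tested, with a median log2 difference of 0.15 (0.18 over mitotic and 0.09 over S-phase members). By edgeR 0 members passed the adjusted threshold, against 0.05% of all genes, and 6 had an unadjusted p under 0.05, against 3.08% of all genes that were higher at that p. These were Ttk, Bub1, Nuf2, Kif11, Nusap1 and Ect2, all mitotic, at 0.21 to 0.32, each with an adjusted p of 0.89. The median was 0.04 with 28 of 44 higher without A16. The median was -0.06 with 8 of 44 higher without A9, where the sex term rests on the homozygotes alone. Without A10, where the term rests on the RKI wild types alone, the median was 0.37. Among the homozygotes the female A10 had the highest scores, at -0.03 for mitotic and -0.01 for S-phase genes. Males A1 and A18 had mitotic scores of -0.12 and -0.07 and S-phase scores of -0.16 and -0.075. RKI and LC1 wild types differ in experiment and in sex, as all LC1 wild types are female and A2 and A16 are male. After the sex term, 13 of 44 members were higher in RKI wild types, against 47.9% of all genes, with a median of -0.06. By edgeR 0 members passed the adjusted threshold, where 0.0125% of all genes passed. The plain means were higher in RKI wild types for most members, for example 376 against 328 CPM for Mki67. They were lower for others, such as 58 against 61.9 CPM for Nusap1. Without A9, which leaves no female RKI wild type, the comparison with the sex term had 42 of 44 higher with a median of 0.29. Without A16 it had 3 of 44 higher with a median of -0.15.

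Other genes of the cell cycle, from lists that do not include the members, had the same arrangement. In RKI homozygotes 39 of 39 other S-phase genes were lower than in wild types with a median log2 fold change of -0.11, 55 of 57 other mitotic genes with -0.14 and 20 of 20 genes of G1 cyclins, their kinases and E2F factors with -0.09. Of 14 inhibitors and genes of cell cycle exit, 7 were lower and 7 higher with a median of -0.01. Without A16 the lower genes numbered 14 of 39, 22 of 57, 8 of 20 and 6 of 14, with medians of 0.02, 0.02, 0.01 and 0.00. In LC1 knockouts 27 of 39, 36 of 57, 14 of 20 and 11 of 14 genes of these lists were higher, with medians of 0.04, 0.05, 0.03 and 0.07. None of these genes passed an adjusted p of 0.05 by edgeR in either comparison. In A16 the scores of the 4 lists were 0.31, 0.37, 0.23 and 0.06, and in A9 they were -0.18, -0.20, -0.14 and -0.06, so the inhibitors and exit genes stood out least from their mean.

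By p, the leading other mitotic genes in RKI were Gtse1, which acts in G2 and at the spindle, at -0.26 (SE 0.0985), Cdca5, the cohesin protector sororin, at -0.33 (SE 0.159) and the condensin subunit gene Smc4 at -0.21 (SE 0.101). The leading other S-phase genes in RKI were Rpa2, a subunit of the single-strand binding complex, at -0.20 (SE 0.0926), the licensing factor gene Cdt1 at -0.23 (SE 0.116) and the exonuclease gene Exo1 at -0.29 (SE 0.155). In the G1 list Mybl2, which encodes B-MYB, had -0.30 (SE 0.156), E2f8 -0.20 (SE 0.111) and E2f4 -0.10 (SE 0.0587). Among inhibitors and exit genes Rbl1, which encodes p107, had -0.17 (SE 0.11), Gadd45g -0.22 (SE 0.141) and Cdkn2d 0.07 (SE 0.074). Each adjusted p was 1 by edgeR, and the groups of Gtse1, Rpa2, Cdt1 and E2f4 did not overlap. In all, 5 of 57 other mitotic, 2 of 39 other S-phase, 1 of 20 G1 and 0 of 14 inhibitor and exit genes were lower in every homozygote, against 3.07% of all genes.

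In LC1 the leading genes of the G1 list were the repressive E2F factors E2f7 at 0.25 (SE 0.107), E2f8 at 0.24 (SE 0.115) and E2f4 at 0.09 (SE 0.0595). These 3 of 20 genes of the list were higher in every knockout than in every wild type, against 3.36% of all genes, with unadjusted p of 0.0308, 0.0483 and 0.138 and an adjusted p of 1 by edgeR. E2f7 averaged 24.3 ± 2.14 CPM in knockouts and 20.4 ± 1.15 CPM in wild types (SD, n = 3 each). Of the other S-phase genes Tipin, of the fork protection complex, had -0.18 (SE 0.0877), the clamp loader gene Rfc4 -0.21 (SE 0.105) and Cdt1 0.20 (SE 0.118). Of the other mitotic genes the condensin genes Smc2 and Ncapd2 had -0.13 (SE 0.0848) and 0.12 (SE 0.0773), and Trip13, a remodeller of checkpoint complexes, 0.17 (SE 0.113). Btg2, an antiproliferative gene of neurogenic progenitors, had 0.14 (SE 0.0922), the inhibitor gene Cdkn1b 0.10 (SE 0.0732) and Rb1 0.10 (SE 0.0702), each with an adjusted p of 1 by edgeR. Of the other lists, 3 of 57 other mitotic, 1 of 39 other S-phase and 1 of 14 inhibitor and exit genes were higher in every knockout, the last being Btg2. Lower in every knockout were 3 of 57 other mitotic and 1 of 39 other S-phase genes, the last being Rfc4. The share of all genes for that direction is not given here.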

How the data were processed

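The authors deposited whole-number counts per gene and RPKM per gene for 12 libraries, and tables of their own comparisons with log2 fold changes and p-values. Tools listed in the submitters' processing notes, with no role stated, are STAR 2.0.4b, featureCounts 1.4.5 of Subread, limma and edgeR. The genome build and strand setting are not given in the sources used. The deposited percent GC content per gene was used as an annotation. The count table holds 41264 rows for 40690 identifiers, and the 574 repeated rows carry the same counts and were dropped.

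Deposited counts went into edgeR 4.0.16 (R 4.3.3) and its quasi-likelihood test (TMM scaling, filterByExpr by group, robust estimates, Benjamini-Hochberg adjustment at 0.05) in 1 fit of 12 libraries with 4 group means and a sex term, leaving 7 residual degrees of freedom. The common biological coefficient of variation was 6.94%. Scores rest on log2 CPM (prior count 2) and have no test. DESeq2 1.42.0, limma-voom, other scalings, filters, a replicate block and left-out libraries were alternatives. The fit was tested on simulated data. The members and lists were chosen with earlier results of these data known. Genes described singly are the member with the smallest p in each of 10 role groups in LC1 and in RKI, with Mki67, Cdk1 and Pcna, and the 3 genes with the smallest p of each other list. Plk1 and other members were also named after their values were seen. Transcript-level tables were not used here.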

Additional observations from a re-analysis of the deposited data

Results flagged for a closer look

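A named gene was flagged if its groups lay apart in opposite directions in LC1 and RKI, or if its difference passed the adjusted threshold. E2f4, the repressive E2F factor of the DREAM complex, was higher in every LC1 knockout than in every LC1 wild type and lower in every RKI homozygote than in every RKI wild type. It was picked by this separation, so the values and the p below describe it and are no separate support. Singly, 3.36% of all genes were higher in every knockout and 3.07% lower in every homozygote. The share with both was not counted. It was at 55.5, 53.8 and 54.2 CPM in LC1 knockouts 7, 22 and 71, against 48.6, 51.8 and 52.9 CPM in LC1 wild types 6, 26 and 73. It was at 49.2, 50.1 and 51.4 CPM in RKI homozygotes A1, A10 and A18, against 54.1, 52.7 and 55.01 CPM in RKI wild types A2, A9 and A16. The difference between the RKI and LC1 effects was -0.20 (SE 0.0836) in log2 units, with an unadjusted p of 0.032 and an adjusted p of 1 by edgeR. All 12 values lie between 48.6 and 55.5 CPM, and A16 was not the highest library of the series for this gene.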

How the results depend on the processing

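Other scalings, DESeq2, limma-voom, the fits of 6 libraries and, where it could be run, the fit without a sex term called none of the 44 members. The median of the members kept its sign in them, except that RKI wild types against LC1 wild types had 0.07 without the sex term. Without the filter on low counts edgeR called 4 genes for LC1, 26 for RKI, 17 for their difference, 45 for sex and 28 for RKI wild types against LC1 wild types. In that fit 2 members passed the sex test, Mki67 at 0.29 (adjusted p = 0.0235) and Cenpe at 0.33 (adjusted p = 0.0192). With the filter, Mki67 and Cenpe each had an adjusted p of 0.89 by edgeR for sex. The median sex difference of the members in the filtered fits was 0.04 without A16 and -0.06 without A9. The share of all genes that passed without the filter is not given here. The embryo numbers do not pair the samples by label, and a replicate block over neighbouring numbers called 3 genes for RKI, none of them a member. Leaving out 1 library called 0 to 2 genes for RKI, 0 to 1 for the difference and 1 to 4 for RKI wild types against LC1 wild types.

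The RKI median ran from -0.316 to 0.051 over mitotic and from -0.244 to 0.051 over S-phase members when 1 library was left out. In these fits 17 of 44 members turned direction in LC1 and 36 of 44 in RKI. Among the genes described singly, the log2 fold changes that turned in LC1 ran from -0.005 to 0.1 for Tpx2, -0.025 to 0.075 for Mcm7, -0.027 to 0.039 for Top2a, -0.036 to 0.012 for Cenpa, -0.003 to 0.159 for Mki67 and -0.108 to 0.029 for Pcna. In RKI they ran from -0.241 to 0.062 for Rrm2, -0.246 to 0.028 for Ube2c, -0.345 to 0.023 for Mcm7, -0.092 to 0.129 for Ccne2, -0.3 to 0.037 for Top2a, -0.341 to 0.054 for Cenpa, -0.143 to 0.093 for Nusap1, -0.278 to 0.084 for Nuf2, -0.332 to 0.044 for Mki67, -0.225 to 0.023 for Cdk1 and -0.244 to 0.043 for Pcna. Each RKI high is the fit without A16, and limma-voom gave 0.003 for Ccne2. Causes were not tested. With 3 embryos a group, even the widest effect among the members, that of Aurkb at -0.26 (SE 0.105) in RKI, had an adjusted p of 1 by edgeR.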
